A study of Mus musculus with 8 samples.

Results

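The genes described here are 10 genes of the amino acid response that the transcription factor ATF4 controls, measured in mouse liver: Atf4, Atf5, Ddit3, Trib3, Chac1, Sesn2, Asns, Phgdh, Psat1 and Psph. They were chosen by gene symbol, and each of the 10 symbols was found once among the 23699 annotated loci. Polyadenylated RNA was sequenced from livers of male C57/BL6 mice, 8 weeks old, with 2 mice in each of 4 groups. The groups were liver-specific Med23 knockout (LMKO) mice given food for 24 h after a fast of 24 h, control mice treated in the same way, LMKO mice fasted for 24 h, and control mice fasted for 24 h. MED23 is a subunit of Mediator, the large complex through which transcription factors reach RNA polymerase II. The promoter that drives the deletion, and the exact alleles of the controls, are not given in the sources used here.

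When amino acids run short, uncharged tRNA activates the kinase GCN2, which phosphorylates the translation factor eIF2alpha. Stress of the endoplasmic reticulum (ER) does the same through the kinase PERK. General translation then slows while Atf4 mRNA is translated more, so ATF4 activity is set largely by translation, and the level of Atf4 mRNA need not follow it. ATF4 binds DNA as a dimer, often with a C/EBP protein, and switches on genes for amino acid synthesis and uptake, tRNA charging and stress. In the liver the pathway responds to the protein content of the diet and to stress.

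Expression is given as FPKM, a fragment count divided by transcript length and library size, so levels can be compared between genes. Differences are on the log2(FPKM + 1) scale, which understates changes of low genes, and were tested with limma over the 10865 loci that reached 1 FPKM in 2 or more libraries. A gene was called at a Benjamini-Hochberg adjusted p under 0.05. Of the 10 genes, 8 passed this filter; Phgdh and Psat1 were too low. The low FPKM values stood in steps from which 1 fragment was estimated to be worth 0.0305 to 0.0345 FPKM for a transcript of 1 kilobase, so depth differed little between libraries. On that scale Atf5 rested on about 5843 to 14395 fragments per library, Ddit3 on 115 to 534, Psph on 75 to 250, Chac1 on 8 to 229 and Phgdh on 1 to 13.

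Properties of the libraries moved with feeding. Deviations of genes from their means followed transcript length. Across genes their correlation with log2 length was 0.24 to 0.308 in fasted livers, -0.023 in re-fed control replicate 1, and -0.381 to -0.339 in the other 3 re-fed livers. Short transcripts such as Ddit3, at 890 bases shorter than all but 5.39% of the tested loci, lie on the side of this trend that reads higher after re-feeding, so values with the trend removed are given beside the feeding results of the called genes. The deposited files carry one name prefix for all fasted libraries and another for all re-fed ones. If the prefix marks a batch, batch and feeding cannot be told apart; the genotype comparisons lie within a prefix. Hepatocyte markers were high throughout, with a summed FPKM of 33625 to 43514 in re-fed LMKO, 24883 to 33918 in re-fed control, 28384 to 29698 in fasted LMKO and 23516 to 27061 in fasted control livers. Of the 10 hepatocyte markers, 9 were in the files and 8 reached 1 FPKM; the value of Alb (albumin) is listed at 0 throughout. Summed FPKM of the 10 sinusoidal endothelial markers was 60.8 to 84.7 in re-fed LMKO and 76.7 to 87.2 in re-fed control livers, against 138 to 148 in fasted LMKO and 106 to 109 in fasted control livers. Kupffer cell markers, 9 of 10 in the files, summed to 55.3 to 84.5 in re-fed LMKO and 94.7 to 122 in re-fed control livers, against 121 to 158 in fasted LMKO and 111 to 132 in fasted control livers. Stellate cell markers, 10 of 10 in the files, summed to 86.7 to 111 in re-fed LMKO and 112 to 136 in re-fed control livers, against 162 to 178 in fasted LMKO and 143 to 168 in fasted control livers. Other lists were higher after re-feeding. Adipocyte markers, 5 of 5 in the files with Lep at 0, summed to 1063 to 1132 in re-fed LMKO and 3427 to 3860 in re-fed control livers, against 65 to 75.1 in fasted LMKO and 108 to 155 in fasted control livers. Only 2 of these 5 reached 1 FPKM in any library, so the sum rests almost wholly on 2 genes and is no measure of adipocyte number. Cholangiocyte markers, 7 of 7 in the files with 4 reaching 1 FPKM, summed to 24.3 to 26.3 in re-fed LMKO and 28.5 to 30.2 in re-fed control livers, against 8.14 to 9.44 in fasted LMKO and 8.44 to 12.1 in fasted control livers. Of 6 pancreatic acinar markers 5 were at 0 throughout, and the sum, that of Cela1 alone, was 35 to 48.6 in re-fed LMKO and 23.5 to 42.6 in re-fed control livers, against 6.03 to 9.9 in fasted LMKO and 4.14 to 5.57 in fasted control livers. In whole liver, fewer cells of a type and less RNA per cell cannot be told apart, and the part of these markers in the feeding results was not tested.

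The deleted gene itself, Med23, had 1.61 and 1.74 FPKM in re-fed LMKO livers, against 2.86 and 2.33 in re-fed control livers, and 2.35 and 2.18 FPKM in fasted LMKO livers, against 2.86 and 2.93 in fasted control livers. Within each feeding state the LMKO values were the lower ones, without overlap. The log2 difference over both states was -0.34 (SE 0.08, limma adjusted p = 0.173) and did not pass. The FPKM covers the whole locus and exon-level values were not used, so the deletion could not be checked by exon. What remaining exons or cells other than hepatocytes add to these values was not tested.

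Across the 8 libraries the 10 genes spanned levels from near absence to abundance. Atf5 had the highest mean, 173 FPKM, and in every library stood above Atf4, whose mean was 46.8 FPKM; no other of the 10 genes reached the lowest Atf4 value of 33.1 FPKM. Ddit3 (mean 9.76 FPKM) and Asns (mean 9.2 FPKM) followed, and their library ranges, 4.17 to 18.3 and 1.67 to 23.6, overlapped. Sesn2, Trib3 and Psph averaged 3.13, 3.06 and 3.02 FPKM over all libraries, but their order turned with feeding. In every re-fed library Psph was above both others, and in every fasted library it was below both. Chac1 averaged 1.18 FPKM, Psat1 0.497 and Phgdh 0.0753.

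**Figure D1:**
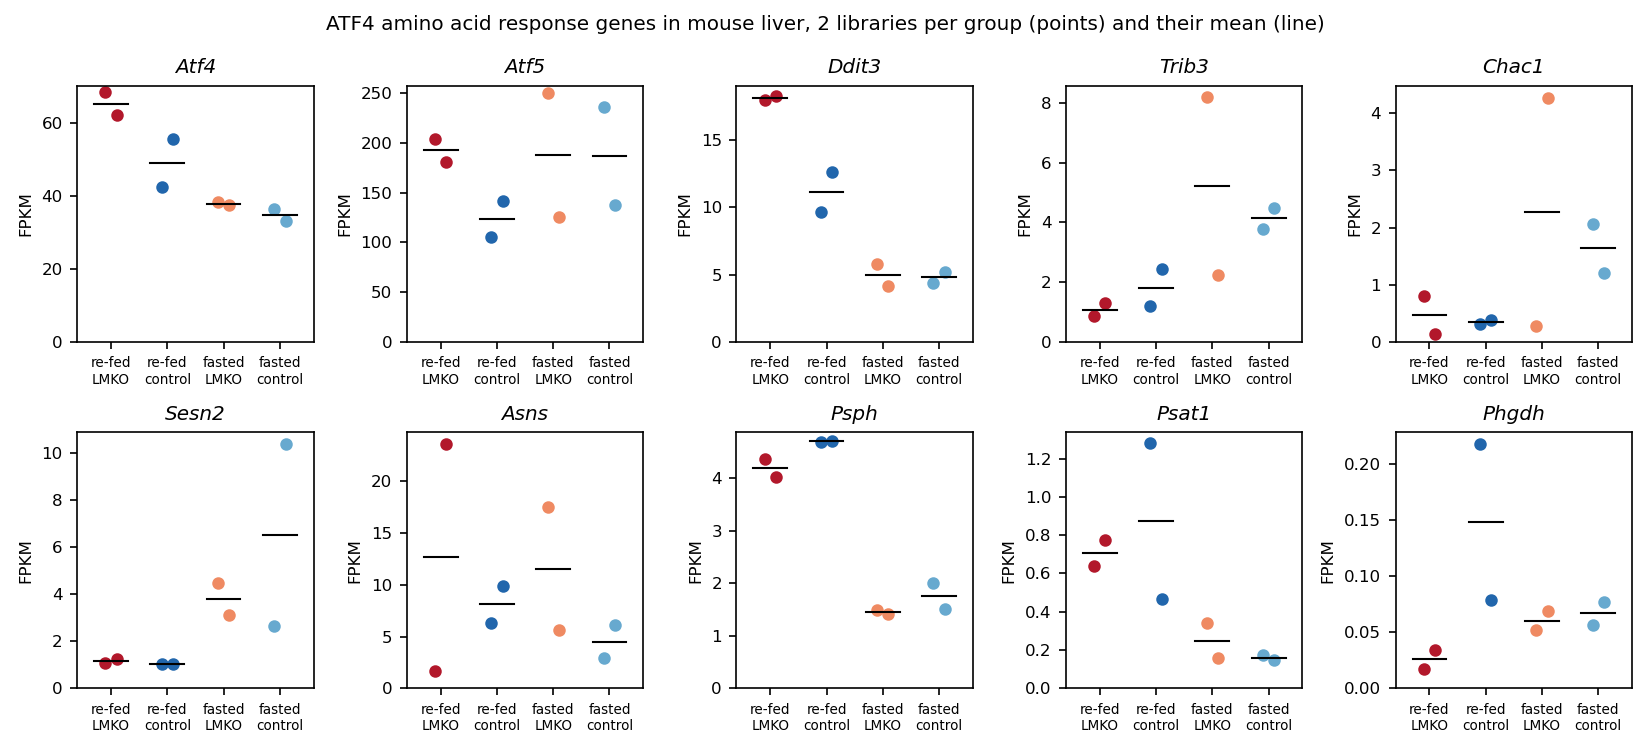
FPKM (vertical axes, linear and different for each gene) of the 10 ATF4 response genes in the 4 groups, with 1 point per library and a line at the mean of the 2. Ddit3 and Psph stood higher in all 4 re-fed than in all 4 fasted libraries and Sesn2 lower, while Asns, Chac1, Trib3 and Sesn2 each held a single library far from the other of its group.

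Ddit3, which encodes the stress factor CHOP, and Psph, an enzyme of serine synthesis, rose after re-feeding in both genotypes. In LMKO livers 3 of the 8 tested genes rose after re-feeding (Ddit3, Psph and Atf4) and none fell, where 39.5% of all tested loci were called, 23.2% higher and 16.3% lower. In control livers Ddit3 and Psph rose and Sesn2 fell, where 33.2% of all tested loci were called, 22.8% higher and 10.5% lower. The called share of the genes, 37.5% in each genotype, was near that background and is no result about the set. Without overlap, 3 genes were higher and 2 lower in re-fed than in fasted LMKO livers, as were 41.5% and 33.8% of tested loci, and 4 were higher and 3 lower in controls, as were 43.9% and 25%. Their median log2 difference was -0.17 in LMKO, against 0.06 over all tested loci, and -0.05 in controls, against 0.13 over all tested loci. The split of all calls depended on scaling: 2521 higher and 1775 lower in LMKO became 2012 and 2014 after quantile normalization, and 2473 higher and 1137 lower in controls became 1834 and 1606 after median-ratio scaling and 1672 and 1694 after quantile normalization. Relative to the control median of 0.13, Ddit3 differed by 0.94, Psph by 0.93 and Sesn2 by -1.79.

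**Figure D2:**
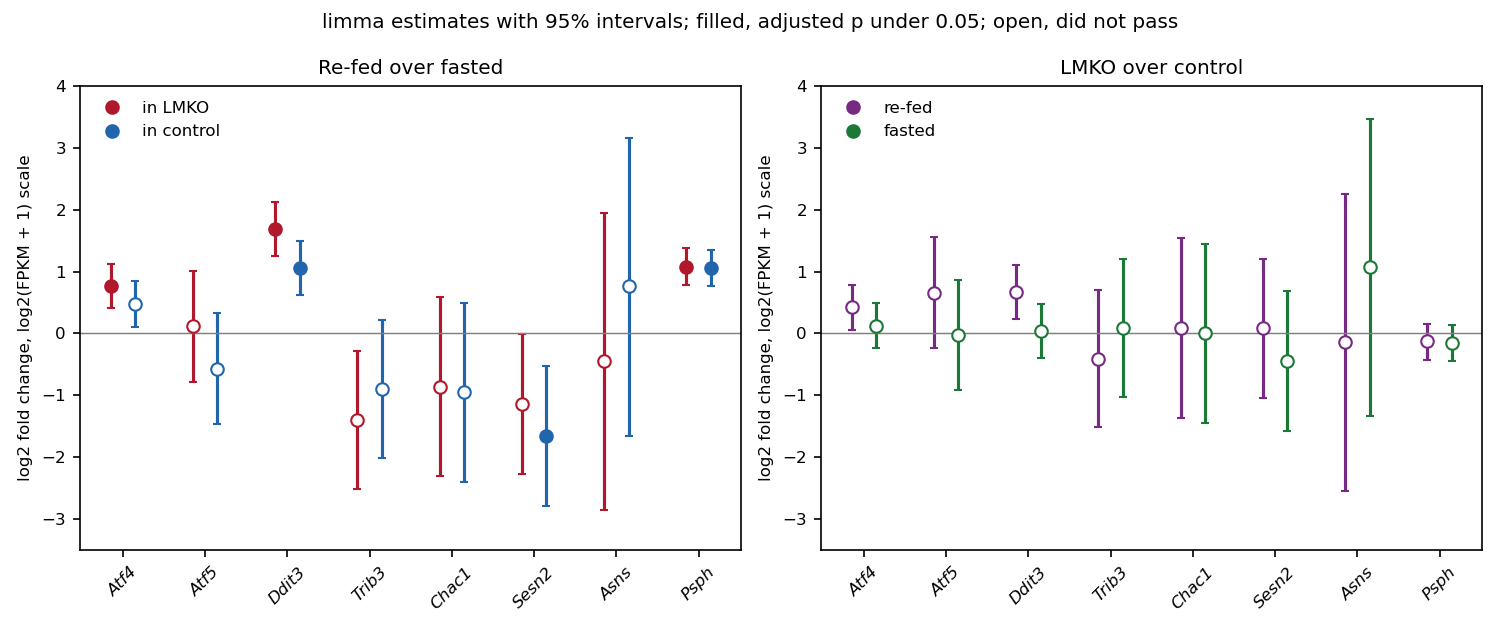
Log2 fold changes on the log2(FPKM + 1) scale (vertical axes) with 95% intervals for the 8 tested genes, re-fed over fasted on the left and LMKO over control on the right; filled points passed an adjusted p of 0.05 and open points did not. Ddit3 and Psph are filled in both genotypes, Atf4 in LMKO and Sesn2 in controls, and no point is filled in the genotype panel.

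The transcription factors came first. Atf4 (chr15:80085614-80087971, mm9), the factor that gives the response its name, had 68.5 and 62.4 FPKM in re-fed LMKO, 42.5 and 55.7 in re-fed control, 38.3 and 37.6 in fasted LMKO and 36.6 and 33.1 in fasted control livers. All 4 re-fed libraries were above all 4 fasted libraries, and the re-fed LMKO pair was the highest. In LMKO the mean was 65.5 ± 4.32 FPKM re-fed and 37.9 ± 0.517 fasted (SD, n = 2 each), a log2 difference of 0.77 (SE 0.15, limma adjusted p = 0.00968). The rise in LMKO was lost with the length trend removed (0.43, limma adjusted p = 0.0622), after quantile normalization (0.45, limma adjusted p = 0.0556) and without re-fed LMKO replicate 1 (limma adjusted p = 0.0579); over the settings other than left-out libraries the adjusted p ran from 0.0083 to 0.0622. In controls the means were 49.1 ± 9.4 FPKM re-fed and 34.8 ± 2.49 fasted (SD, n = 2 each), and the difference of 0.47 did not pass (SE 0.15, limma adjusted p = 0.0539). It was 0.14 with the length trend removed (limma adjusted p = 0.482). It passed when the minimum was set at 5 FPKM (limma adjusted p = 0.0484), in a range of 0.0484 to 0.482 over the settings other than left-out libraries, and without re-fed control replicate 1 (0.66, limma adjusted p = 0.0279), and its adjusted p over the 8 leave-one-out fits ran from 0.0279 to 0.205.

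Ddit3 (chr10:126727849-126733344, mm9) encodes CHOP, a C/EBP-family factor induced through ATF4 and linked to cell death under lasting stress. It had 18 and 18.3 FPKM in re-fed LMKO, 9.62 and 12.6 in re-fed control, 5.81 and 4.17 in fasted LMKO and 4.34 and 5.22 in fasted control livers. The re-fed libraries did not overlap the fasted ones in either genotype. In LMKO the mean was 18.2 ± 0.22 FPKM re-fed and 4.99 ± 1.16 fasted (SD, n = 2 each), which is 3.64-fold, with a log2 difference of 1.69 (SE 0.18, limma adjusted p = 0.00179). In controls it was 11.1 ± 2.13 FPKM re-fed and 4.78 ± 0.626 fasted (SD, n = 2 each), which is 2.33-fold, with a log2 difference of 1.06 (SE 0.18, limma adjusted p = 0.00821). Ddit3 was called in both genotypes in all 8 fits that left out a library. With the length trend removed the difference was 1.01 in LMKO (limma adjusted p = 0.00661) and 0.52 in controls (limma adjusted p = 0.0488). Both were still called, the control value only just under the threshold. The part of the trend in the full value was not tested further.

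Atf5 (chr7:52067626-52072028, mm9), a close relative of ATF4 whose translation is controlled in the same way, had 204 and 181 FPKM in re-fed LMKO, 105 and 142 in re-fed control, 250 and 126 in fasted LMKO and 236 and 138 in fasted control livers. The fasted pairs were wide apart, and re-fed and fasted libraries overlapped in both genotypes. The log2 difference was 0.12 in LMKO (SE 0.38, limma adjusted p = 0.827) and -0.57 in controls (SE 0.38, limma adjusted p = 0.282). In LMKO it was -0.37 after quantile normalization and -0.20 with the length trend removed, and in controls it was -0.88 with the trend removed.

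Some of the target genes carry ATF4-type sites close to their start. The core of the C/EBP-ATF response element, TGATGNAA, and the cAMP response element, TGACGTCA, were searched on both strands in RefSeq promoter windows of build GRCm38.p6, from 250 bases before to 50 after each start. All 10 genes had a window, 12 in all. TGATGNAA was found in windows of 3 of the genes (Chac1, Trib3 and Asns) and in 3.97% of all 32851 windows; TGACGTCA was found in none of the 12 and in 1.79% of all. No match of one motif overlapped a match of the other. The 3 matches are shown as the full set found among these genes; none of the 3 genes passed the test after re-feeding in either genotype; capitals mark the match. Each line reads along the strand of the gene, on which the Chac1 and Trib3 matches are the reverse complement of the motif.
Chac1, 193 bases before the start, chr2:119351029-119351076, plus strand: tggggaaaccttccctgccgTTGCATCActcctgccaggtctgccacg
Trib3, 15 bases after the start, chr2:152344028-152344057, minus strand: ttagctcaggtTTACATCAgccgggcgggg
Asns, 23 bases before the start, chr6:7693210-7693252, minus strand: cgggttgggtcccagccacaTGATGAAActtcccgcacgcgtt
A match is a description of the sequence and does not show binding.

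Among the stress targets, Sesn2 (chr4:132048722-132066371, mm9) encodes a leucine sensor that restrains the growth kinase complex mTORC1. It had 1.06 and 1.24 FPKM in re-fed LMKO, 1.04 and 1.04 in re-fed control, 4.49 and 3.11 in fasted LMKO and 2.64 and 10.4 in fasted control livers. Every re-fed library lay below every fasted one, with the highest value in fasted control replicate 2. In controls the mean was 1.04 ± 0.00319 FPKM re-fed and 6.53 ± 5.5 fasted (SD, n = 2 each), a log2 difference of -1.66 (SE 0.47, limma adjusted p = 0.0369), and -1.74 with the length trend removed. Without fasted control replicate 2 the fall was -0.84 and was still called (limma adjusted p = 0.0463), with the lone fasted library assumed to vary like the others; dropping any of the 6 libraries of the other groups ended the call, with an adjusted p of up to 0.125. In LMKO the difference was -1.14 (SE 0.47, limma adjusted p = 0.0977) and did not pass. It was called without either fasted control library, but the estimate stayed at -1.14. Those libraries enter this comparison only through the estimate of the spread, which all 4 groups share, and the wide fasted control pair then no longer counted in it. Over the 8 leave-one-out fits the difference ran from -1.35 to -0.93.

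Trib3 (chr2:152163161-152169796, mm9), a pseudokinase that ATF4 and CHOP induce and that feeds back on ATF4, had 0.857 and 1.3 FPKM in re-fed LMKO, 1.2 and 2.43 in re-fed control, 8.2 and 2.24 in fasted LMKO and 3.78 and 4.49 in fasted control livers. Re-fed libraries were below fasted ones within each genotype. The log2 difference was -1.40 in LMKO (SE 0.47, limma adjusted p = 0.0516) and -0.90 in controls (SE 0.47, limma adjusted p = 0.179), so neither passed. The control value was called without fasted LMKO replicate 1 or 2, but it stayed at -0.90. Only the shared estimate of the spread changed, as the wide fasted LMKO pair no longer counted in it. Over the 8 leave-one-out fits the control value ran from -1.22 to -0.58. The LMKO value rested largely on fasted LMKO replicate 1, at 8.2 FPKM. It was -0.65 without that library and -2.16 without fasted LMKO replicate 2, the ends of its range over the 8 leave-one-out fits.

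Chac1 (chr2:119176978-119180062, mm9) encodes an enzyme that degrades glutathione and is among the genes most responsive to ATF4. It had 0.795 and 0.145 FPKM in re-fed LMKO, 0.311 and 0.384 in re-fed control, 0.277 and 4.27 in fasted LMKO and 2.07 and 1.2 in fasted control livers. The control groups did not overlap, with the re-fed pair lower; the LMKO groups did overlap, since fasted LMKO replicate 1 was as low as the re-fed libraries. The log2 difference was -0.86 in LMKO (SE 0.61, limma adjusted p = 0.297) and -0.95 in controls (SE 0.61, limma adjusted p = 0.266). The control value passed in a fit of its own 4 libraries (limma adjusted p = 0.0331, in a range of 0.0331 to 0.375 over the other settings). It was also called without fasted LMKO replicate 1 or 2. In all of these fits it stayed at -0.95, and only the estimate of the spread changed, as the wide fasted LMKO pair no longer counted in it. Over the 8 leave-one-out fits the control value ran from -1.19 to -0.71. Without fasted LMKO replicate 1 the LMKO value was -1.88 and passed (limma adjusted p = 0.017), against 0.17 without fasted LMKO replicate 2 (limma adjusted p = 0.73).

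Of the amino acid synthesis genes, Psph was the only one called. Psph (chr5:130271434-130293129, mm9) encodes phosphoserine phosphatase, the last enzyme of serine synthesis. It had 4.36 and 4.02 FPKM in re-fed LMKO, 4.69 and 4.7 in re-fed control, 1.48 and 1.42 in fasted LMKO and 2 and 1.5 in fasted control livers. The 4 re-fed libraries lay close together and well above the 4 fasted ones. The log2 difference was 1.08 in LMKO (SE 0.12, limma adjusted p = 0.00203) and 1.06 in controls (SE 0.12, limma adjusted p = 0.00275). Psph was called in both genotypes in all 8 fits that left out a library, and with the length trend removed it differed by 0.74 in LMKO and 0.73 in controls.

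The preceding enzymes of the same route were low. Psat1 (chr19:15979613-15999549, mm9), phosphoserine aminotransferase, had 0.64 and 0.773 FPKM in re-fed LMKO, 1.28 and 0.466 in re-fed control, 0.339 and 0.16 in fasted LMKO and 0.175 and 0.147 in fasted control livers. All re-fed libraries were above all fasted ones; in a fit with no filter the log2 differences of 0.45 in LMKO (limma adjusted p = 0.179) and 0.65 in controls (limma adjusted p = 0.0837) did not pass. Phgdh (chr3:98117094-98143892, mm9), phosphoglycerate dehydrogenase at the entry of the route, had 0.0176 and 0.0338 FPKM in re-fed LMKO, 0.218 and 0.0787 in re-fed control, 0.0522 and 0.0685 in fasted LMKO and 0.0564 and 0.0771 in fasted control livers. At about 1 to 13 fragments per library these values are close to the limit of detection, and differences between groups could not be measured at this depth.

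Asns (chr6:7625171-7643182, mm9), asparagine synthetase and a standard marker of amino acid shortage, had the widest gap between replicates of the tested genes on the log2(FPKM + 1) scale. It had 1.67 and 23.6 FPKM in re-fed LMKO, 6.28 and 9.91 in re-fed control, 17.5 and 5.59 in fasted LMKO and 2.91 and 6.12 in fasted control livers. The 2 re-fed LMKO mice were the lowest and the highest of all 8 and differed 14.1-fold. By plain fold Chac1 in fasted LMKO was wider still, at 15.4-fold. The log2 difference of re-fed over fasted was -0.45 in LMKO (SE 1.01, limma adjusted p = 0.747) and 0.76 in controls (SE 1.01, limma adjusted p = 0.593). Its interval in LMKO, -2.85 to 1.95, leaves sizeable changes of either sign possible. With the length trend removed it was -0.72 in LMKO and 0.48 in controls.

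The spread between the 2 mice of a group was itself uneven over the genes. The median absolute difference between replicates over all tested loci was 0.13 in re-fed LMKO, 0.19 in re-fed control, 0.16 in fasted LMKO and 0.17 in fasted control livers on the log2(FPKM + 1) scale. The Asns difference of 3.20 in re-fed LMKO was above that of 99.7% of tested loci. In fasted LMKO, Chac1 at 2.05 was above 99.4%, and Trib3 at 1.51 and Asns at 1.49 were each above 99%. Sesn2 at 1.65 in fasted controls was also above 99%. These differences did not all share a direction. In fasted LMKO, every tested gene but Chac1 was higher in replicate 1. Among them were Asns, Trib3 and Atf5, and also Ddit3 (5.81 against 4.17 FPKM) and Sesn2 (4.49 against 3.11 FPKM). Atf4 and Psph were nearly equal in the pair, and Chac1 was higher in replicate 2. Fasted control replicate 2, the library with the high Sesn2 value, also held the highest values of Ddit4 (46.3 FPKM, against 4.02 in replicate 1), an mTORC1 inhibitor, and of Cebpd (6.08 FPKM, against 3.01), a C/EBP factor. Atf4 and Psph, by contrast, stayed at or below 0.39 in every group.

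**Figure D3:**
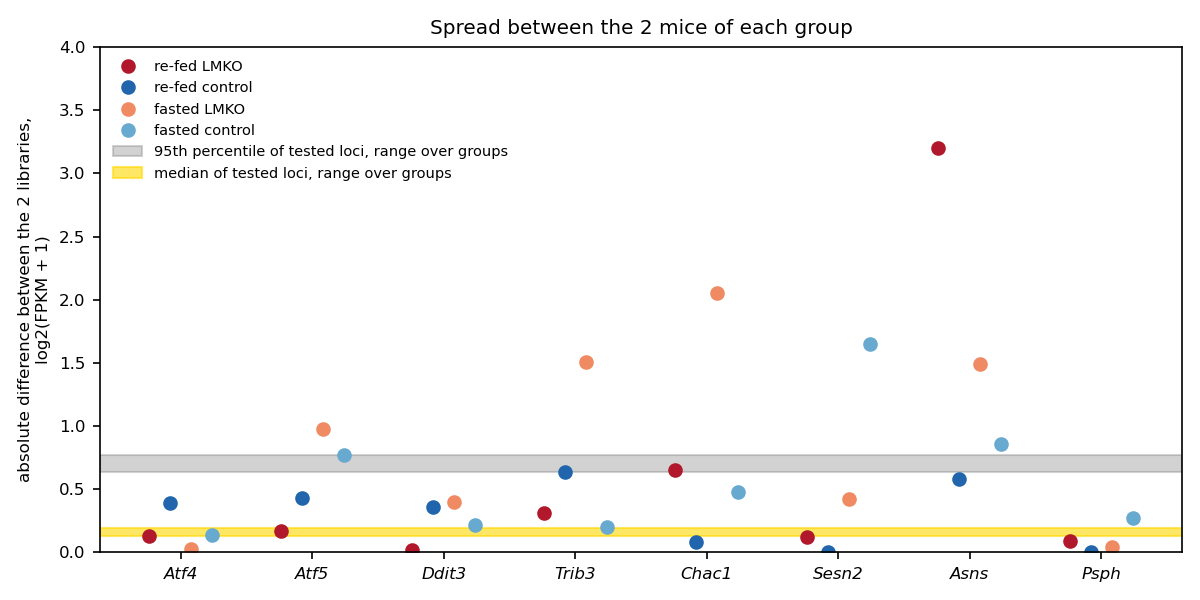
Absolute difference between the 2 libraries of each group on the log2(FPKM + 1) scale (vertical axis) for the 8 tested genes, coloured by group, with bands for the median and the 95th percentile over all tested loci (range over the 4 groups). Asns in re-fed LMKO, at 3.20, and Chac1, Trib3 and Asns in fasted LMKO and Sesn2 in fasted controls, at 1.49 to 2.05, stand far above the band of the 95th percentile.

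The genotype comparisons asked whether loss of Med23 in the liver altered the response. None of the 8 genes passed in re-fed livers, where 0.101% of all tested loci were called, or in fasted livers, where 0.166% were. None passed over both states together (0.313% of loci called) or in the interaction, the difference between the re-feeding responses of LMKO and control livers (0.0368% of loci called). At an unadjusted limma p under 0.05 there were 2 of 8 in re-fed livers, 0 in fasted livers, 2 over both states and 1 in the interaction. Both re-fed LMKO libraries were above both re-fed control libraries for 4 genes, Atf4, Atf5, Ddit3 and Sesn2, where 25.6% of all tested loci did the same, and below for Psph, where 19.4% of loci did the same. In fasted livers Atf4 was above without overlap, as were 33% of tested loci, Psph below, as were 12.8%, and 6 genes overlapped.

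The smallest p among these was that of Ddit3 in the re-fed state. It averaged 18.2 ± 0.22 FPKM in LMKO and 11.1 ± 2.13 in control livers (SD, n = 2 each), a log2 difference of 0.67 with a 95% interval of 0.23 to 1.11 (limma, unadjusted p = 0.00876, adjusted p = 0.315). In fasted livers its difference was 0.04, with an interval of -0.40 to 0.48, and it turned negative after median-ratio scaling (-0.05), quantile normalization (-0.03) and removal of the length trend (-0.07). The interaction for Ddit3 was 0.63 with an interval of 0.01 to 1.25 (limma, unadjusted p = 0.0476, adjusted p = 0.53). Atf4 in re-fed livers differed by 0.42, with an interval of 0.05 to 0.78 (limma, unadjusted p = 0.0302, adjusted p = 0.39), and Atf5 by 0.66, with an interval of -0.24 to 1.56 (limma adjusted p = 0.533). The re-fed control libraries themselves differed in the length trend (-0.023 in replicate 1 and -0.339 in replicate 2), and replicate 1 was the lower of the pair for Atf4, Atf5 and Ddit3. Over the settings other than left-out libraries, removal of the length trend among them, the re-fed difference ran from 0.42 to 0.71 for Ddit3. It ran from 0.31 to 0.44 for Atf4 and from 0.55 to 0.68 for Atf5. With 1 library left out the ranges were 0.49 to 0.85 for Ddit3, 0.23 to 0.61 for Atf4 and 0.44 to 0.87 for Atf5. The part of the trend in these differences was not tested further. Psph differed by -0.13 in re-fed livers (interval -0.43 to 0.16) and -0.16 in fasted livers (interval -0.45 to 0.13). The intervals of Trib3, Chac1, Sesn2 and Asns each ran past 1 log2 unit in at least one direction in both feeding states, so changes of that size could not be seen or set aside with 2 mice a group.

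The wider pathway was followed through 7 gene lists, none of which held any of the 10 genes. Each count below is set against all tested loci, of which 23.2% were called higher and 16.3% lower after re-feeding in LMKO (median 0.06) and 22.8% higher and 10.5% lower in controls (median 0.13). No listed gene passed in a genotype comparison or in the interaction. After re-feeding, the kinases, phosphatase subunits and cofactors around eIF2alpha, 9 of 9 tested, held 1 gene that rose and 3 that fell in LMKO and 1 of each in controls, where 33.2% of all loci were called in either direction. Ppp1r15a (GADD34), the phosphatase subunit that ATF4 signalling induces to reverse eIF2alpha phosphorylation, fell in both: it had 2.31 and 2.7 FPKM in re-fed LMKO, 2.62 and 2.48 in re-fed control, 5.28 and 4.74 in fasted LMKO and 4.58 and 4.68 in fasted control livers (log2 difference -0.78 in LMKO, limma adjusted p = 0.00354, and -0.67 in controls, limma adjusted p = 0.00751). Ppp1r15a thus fell while Ddit3 rose. Eif2ak4, which encodes GCN2, fell by 0.41 in LMKO (limma adjusted p = 0.0365) and differed by -0.01 in controls (limma adjusted p = 0.979). Eif2ak3, which encodes PERK, rose by 0.62 in controls (limma adjusted p = 0.0443) and differed by 0.35 in LMKO (limma adjusted p = 0.177). These counts moved over the settings other than left-out libraries, with fewer genes tested at a minimum of 5 FPKM. They ran from 0 to 2 higher and 1 to 4 lower in LMKO, and from 0 to 2 higher and 0 to 2 lower in controls.

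Of the bZIP factors that pair with or act beside ATF4, 9 of 11 were tested, and 2 rose and 2 fell in each genotype. None was called higher in controls with the length trend removed or after quantile normalization, and none lower in LMKO with the trend removed. Atf3, a stress-induced factor downstream of ATF4, rose in both: it had 1.8 and 2.7 FPKM in re-fed LMKO, 0.821 and 0.832 in re-fed control, 0.393 and 0.306 in fasted LMKO and 0.301 and 0.308 in fasted control livers (log2 difference 1.26 in LMKO, limma adjusted p = 0.00235, and 0.49 in controls, limma adjusted p = 0.0481). As with Ddit3, its LMKO value exceeded the control value in re-fed livers by 0.82 without passing (limma adjusted p = 0.235). Cebpb, a partner of ATF4 and CHOP, fell in controls (log2 difference -1.28, limma adjusted p = 0.00691), where it had 13.5 and 15.4 FPKM re-fed and 30.9 and 42.9 fasted. In LMKO it had 14 and 10.1 FPKM re-fed and 13.3 and 15 fasted (log2 difference -0.23, limma adjusted p = 0.401). The interaction for Cebpb was 1.05 and did not pass (limma adjusted p = 0.507).

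Of the amino acid transporters, 7 of 10 were tested; 2 rose and 1 fell in LMKO, and 2 rose and 2 fell in controls. Slc1a4 and Slc1a5, carriers of neutral amino acids such as serine and glutamine, rose, by 1.14 and 1.11 in LMKO (limma adjusted p = 0.00143 and 0.00302) and by 1.18 and 0.90 in controls (limma adjusted p = 0.00168 and 0.00746). Slc38a2, the starvation-adaptive carrier SNAT2 and an ATF4 target, fell by 1.46 in LMKO and by 1.14 in controls (limma adjusted p = 0.00986 and 0.0261). Its values were 15.8 and 12.3 FPKM in re-fed LMKO, 20.5 and 13.6 in re-fed control, 33.4 and 47.6 in fasted LMKO and 30.8 and 46.9 in fasted control livers. Slc6a9, a glycine carrier, fell by 1.25 in controls (limma adjusted p = 0.0193). In neither genotype were the called falls kept in every fit that left out a library.

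Serine, glycine and folate one-carbon enzymes, 11 of 13 tested, held 5 genes that rose and 2 that fell in LMKO, with a median of 0.40, and 6 that rose and 1 that fell in controls, with a median of 0.51. After quantile normalization 3 were called higher in each genotype, and as few as 3 when a library was left out. Gcat, a mitochondrial enzyme of threonine breakdown to glycine, rose by 1.45 in LMKO and by 1.48 in controls (limma adjusted p = 0.00192 and 0.00235). Shmt2, which passes the one-carbon unit of serine to folate in mitochondria, rose by 1.06 in LMKO and by 0.82 in controls (limma adjusted p = 0.002 and 0.00519), and Mthfd2, the next mitochondrial folate enzyme, rose in both (limma adjusted p = 0.00207 and 0.00792), with 1.9 and 2.79 FPKM in re-fed LMKO, 1.67 and 1.44 in re-fed control, 0.264 and 0.245 in fasted LMKO and 0.235 and 0.43 in fasted control livers. Sdsl, a serine dehydratase-like enzyme, fell by 1.35 in LMKO and by 1.43 in controls (limma adjusted p = 0.0152 and 0.0158).

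Aminoacyl-tRNA synthetases, which charge tRNAs and are induced by ATF4, were tested in full, and 8 of 13 rose in each genotype while none fell, against 23.2% of all tested loci called higher in LMKO and 22.8% in controls. The medians were 0.58 in LMKO and 0.52 in controls, against 0.06 and 0.13 over all loci. Cars had the smallest p: it rose by 1.01 in LMKO and by 1.26 in controls (limma adjusted p = 0.00183 and 0.00167), with 11.4 and 11 FPKM in re-fed LMKO, 9.86 and 10.9 in re-fed control, 5.26 and 4.92 in fasted LMKO and 3.97 and 3.53 in fasted control livers. Wars rose by 0.93 in both, and Yars, Nars and Aars rose by 0.75 to 0.92. The count fell to 5 of 13 in each genotype after quantile normalization, and to as few as 3 in LMKO and 4 in controls when a library was left out.

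Other genes linked to ATF4, 17 of 21 tested, held 2 that rose and 3 that fell in each genotype, below the share of all loci called (39.5% in LMKO and 33.2% in controls). The risers were the same: Cth, cystathionine gamma-lyase, rose by 1.33 in LMKO and 0.94 in controls (limma adjusted p = 0.00527 and 0.0191), and Cbs, cystathionine beta-synthase, by 0.81 and 1.04 (limma adjusted p = 0.0213 and 0.0122). In controls 0 genes of the list were called higher after quantile normalization and 1 with the length trend removed. In LMKO 1 was called higher after quantile normalization and 2 with the trend removed. Fgf21, a fasting hormone of the liver that both ATF4 and PPARalpha control, fell: it had 0.554 and 1.18 FPKM in re-fed LMKO, 0.327 and 0.354 in re-fed control, 21.6 and 6.4 in fasted LMKO and 35 and 14.6 in fasted control livers (log2 difference -2.81 in LMKO, limma adjusted p = 0.0103, and -4.15 in controls, limma adjusted p = 0.00434). Map1lc3b, an autophagy gene, fell by 0.89 in LMKO and by 1.29 in controls (limma adjusted p = 0.00647 and 0.00315). Of the sestrins related to Sesn2, Sesn3 fell by 0.63 in LMKO (limma adjusted p = 0.0478) and Sesn1 fell by 0.58 in controls (limma adjusted p = 0.037).

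ER chaperone genes, which answer mainly to XBP1 and ATF6, were taken as the neighbouring branch of the stress response. Here 12 of 14 rose in each genotype and none fell, against the same 23.2% and 22.8% of all loci called higher, with medians of 1.32 in LMKO and 1.07 in controls. Sdf2l1 rose by 2.57 in LMKO and 2.49 in controls, Manf, a secreted ER stress protein, by 2.64 and 2.48, and Hspa5, the chaperone BiP, by 1.70 and 1.21 (limma adjusted p from 0.000849 to 0.00312). Hspa5 had 654 and 527 FPKM in re-fed LMKO, 433 and 397 in re-fed control, 170 and 191 in fasted LMKO and 178 and 180 in fasted control livers. With the length trend removed, 10 in LMKO and 9 in controls were still called, and 8 in LMKO and 9 in controls after quantile normalization.

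**Figure D4:**
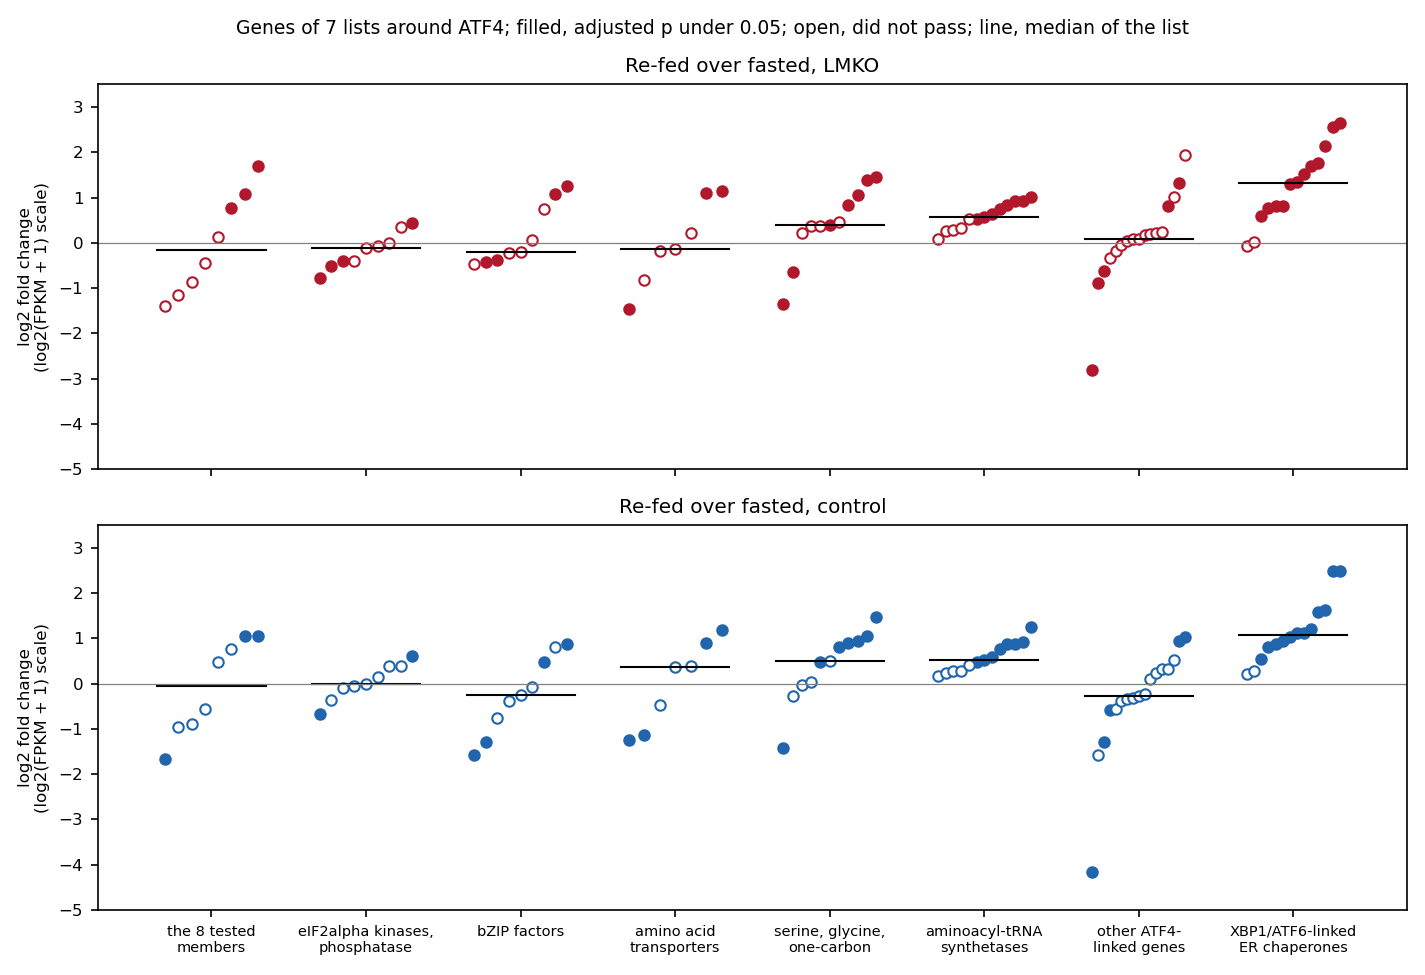
Log2 fold change of re-fed over fasted (vertical axis, log2(FPKM + 1) scale) for each tested gene of the 8 ATF4 response genes and of 7 related lists, in LMKO (top) and control (bottom) livers; filled points passed an adjusted p of 0.05, open points did not, and lines are list medians. The chaperone list (12 of 14 called higher) and the tRNA synthetase list (8 of 13 called higher) held no called fall in either genotype, while the estimates of the ATF4 response genes lay on both sides of 0.

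Among the genes themselves, likeness was measured as the root-mean-square difference of centred log2(FPKM + 1) profiles over the 8 libraries, which share their processing and scaling. The closest pairs were Atf4 and Psph (0.33), Ddit3 and Psph (0.38) and Atf4 and Ddit3 (0.41), followed by Atf4 and Atf5 (0.52) and Sesn2 and Trib3 (0.56). Asns was at least 1.05 from every other gene. Among 6622 loci with a mean of at least 5 FPKM, the profiles nearest to that of Ddit3 were those of 2310003F16Rik, Tmem147, Snrpd2 and Psmb5 (0.12 each) and Lsm4 (0.14). Their transcripts measure 4170, 875, 1420, 899 and 925 bases in that order, against a median of 2971 over the tested loci. Those nearest to Sesn2 were Acot2 (0.18), Cpeb2 (0.19), Map3k5 (0.22), Rapgef4 (0.23) and Retsat (0.25), and those nearest to the mean of the 8 tested genes were Tmem203 (0.07), Acp6, Gsto1 and Dtnbp1 (0.08 each) and Brd7 (0.09). That mean profile was close to flat, with a root-mean-square of 0.16, against 0.74 for Ddit3 and 0.84 for Sesn2. A locus that did not vary at all would lie 0.16 from it, so nearness to it says little about a shared response.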

How the data were processed

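The authors deposited 1 FPKM value per locus and library. Per the submitters' processing notes, TopHat 1.4.1, Cufflinks 2.0.2, Cuffdiff 2.0.2 and build mm9 were used; whether the authors scaled libraries further is unknown here. Deposited starts count from 0 and are printed 1 higher. The 8 libraries were joined by locus and symbol and used without further scaling. log2(FPKM + 1) was fitted with limma 3.58.1 (R 4.3.3) on 10865 loci with 4 group means, 4 residual degrees of freedom and an eBayes trend (2.74 prior degrees of freedom); tests were two-sided. The steps were tested on simulated data. Transcript lengths came from a gene annotation of another build, matched by symbol, so estimated fragments are approximate.

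The genes, lists and comparisons were chosen with earlier results of these data known. Listed genes named in the text were, per comparison, up to 6 past the threshold by smallest p; likeness genes were the 5 nearest. Ddit4 and Cebpd were shown beside Sesn2 after their values were seen. Alternatives were pseudocounts of 0.1 and 0.5, no filter, an FPKM of at least 5, quantile normalization, median-ratio scaling, eBayes without the trend or robust, fits of 4 libraries, a replicate block, removal of the length trend and leaving out each library. Replicate numbers did not pair the samples: differences between replicates correlated at -0.084 to -0.008 between groups.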

Additional observations from a re-analysis of the deposited data

Results flagged for a closer look

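Phgdh, at values close to the limit of detection, stood in opposite directions after re-feeding in the 2 genotypes, as judged by position alone. Both re-fed LMKO libraries were below both fasted LMKO libraries (ratio of mean FPKM 0.425), as in 33.8% of tested loci. Both re-fed control libraries were above both fasted control libraries (ratio 2.22), as in 43.9% of tested loci. The nearest control values were 0.0787 FPKM re-fed and 0.0771 FPKM fasted, about 4 fragments each. The control ratio rests on re-fed control replicate 1, at 0.218 FPKM. The difference between the genotypes was not tested in the main model because Phgdh did not pass the filter on low values; with no filter the interaction was -0.15 and did not pass (limma adjusted p = 0.618). The values rest on about 1 to 13 fragments per library, so differences between groups could not be measured at this depth.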

How the results depend on the processing

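Ddit3 and Psph kept their calls after re-feeding in both genotypes under every alternative run, except that Psph was not tested at an FPKM of at least 5. Ddit3 in controls passed only narrowly with the length trend removed (0.52, limma adjusted p = 0.0488). The number of the genes called after re-feeding was 2 to 4 in LMKO and 2 to 4 in controls, against 3 each, and 0 in every genotype comparison and the interaction throughout; a replicate block gave 3 and 3 after re-feeding and 0 in the others, and changed no count. Signs turned only for differences that did not pass. Other settings turned Chac1 over both states to -0.16 (pseudocount 0.1), 0.00 (pseudocount 0.5) and -0.06 (length trend removed), Chac1 between re-fed genotypes to -0.03 (length trend removed), Ddit3 between fasted genotypes to -0.05 (median-ratio), -0.03 (quantile) and -0.07 (length trend removed), and Atf5 after re-feeding in LMKO to -0.37 (quantile) and -0.20 (length trend removed); the cause was not tested.

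Leaving out 1 library gave these ranges where a sign turned. LMKO against control, fasted, ran from -0.51 to 0.46 for Atf5, -0.16 to 0.24 for Ddit3, -0.66 to 0.85 for Trib3, -1.03 to 1.02 for Chac1 and -1.27 to 0.38 for Sesn2. LMKO against control, re-fed, ran from -0.24 to 0.41 for Chac1 and -1.74 to 1.46 for Asns. Over both states it ran from -0.54 to 0.22 for Trib3, -0.47 to 0.55 for Chac1, -0.59 to 0.23 for Sesn2 and -0.34 to 1.27 for Asns. Re-feeding in LMKO ran from -0.37 to 0.61 for Atf5, -1.88 to 0.17 for Chac1 and -2.05 to 1.15 for Asns. The interaction ran from -1.26 to 0.25 for Trib3, -0.93 to 1.11 for Chac1, -0.31 to 1.34 for Sesn2, -2.81 to 0.4 for Asns and -0.11 to 0.16 for Psph.

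Sesn2 in controls also lost its call with no filter (limma adjusted p = 0.0822) and with only its 4 libraries (limma adjusted p = 0.0777), and its adjusted p over the settings other than left-out libraries was 0.0257 to 0.0822. In LMKO the Sesn2 fall gained a call with only its 4 libraries (limma adjusted p = 0.0102, in a range of 0.0102 to 0.178 over the same settings). It stayed at -1.14 there, and the wide fasted control pair no longer counted in the estimate of the spread. Trib3 in LMKO gained a call with pseudocounts of 0.1 and 0.5, median-ratio scaling and the length trend removed (limma adjusted p = 0.0423, 0.0471, 0.0481 and 0.0375, in a range of 0.0375 to 0.107). Phgdh rested on about 1 to 13 fragments per library and Psat1 on 11 to 103.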
